A study of Mus musculus with 2 samples.

Results

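The cells described here are 214 non-cycling Lewis lung carcinoma cells, out of 6630 cells of 2 single-cell RNA libraries. All 214 came from the Smad3-WT library (4116 cells) and 0 from the Smad3-KO library (2514 cells). A cell was counted as non-cycling carcinoma when it held at least 200 genes, under 10% mitochondrial UMIs and over 2000 UMIs (unique molecular identifiers, each marking 1 captured RNA molecule), with no upper limit. It also held at least 5 UMIs of Krt8, Krt18, Rhox5 and Wfdc2 together with at least 2 of these genes detected, under 3 of C1qa, C1qb and C1qc, none of Cd79a or Cd3e, under 2 of Dcn, and under 3 of Mki67, Top2a, Ube2c and Birc5. Levels of these genes chose the cells, so they are given as a description only.

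Both libraries were made from subcutaneous LLC tumors of C57BL/6 mice aged 8 to 12 weeks, which were either Smad3-wildtype (Smad3+/+) or Smad3-deficient (Smad3-/-), with 1 library per genotype from pooled tumors. The study used mice of both sexes, and the sexes in each pool were not given in the sources used here. Smad3 was lost in the host mouse, and the implanted carcinoma line was the same in both. Tumors were digested, and cells carrying CD11b and Ly6G were sorted before encapsulation with a 5′ expression kit, so the libraries were made for neutrophils and a carcinoma cell in them had passed that gate. The Smad3-WT library held 23951400 UMIs and the Smad3-KO library 4214290. With 1 library per genotype and with cells that share it, no test was possible. The intervals given are exact 95% intervals that cover counting error only, not differences between tumors.

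Lewis lung carcinoma is a transplantable line derived from a lung tumor of a C57BL/6 mouse, and it is known as a fast-growing, poorly differentiated model. Krt8 and Krt18 encode the keratin pair of simple epithelia, Rhox5 a homeobox protein of the reproductive tract and placenta that many tumor lines express, and Wfdc2 a secreted protease inhibitor used in patients as the serum marker HE4. Hmga2, a chromatin protein of the embryo that many carcinomas switch on again, was not part of the rule.

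The stretches before the RefSeq starts of these marker genes are shown because the genes define the cells. They are the 250 bases upstream of the RefSeq start on build GRCm38.p6, 5′ to 3′ on the strand of the gene. Capitals mark the GC box (GGGCGG), the TATA box (TATAAA), the CCAAT box (CCAAT) and the AP-1 site (TGANTCA), each searched on both strands.
Krt8, chr15:102004343-102004592, minus strand: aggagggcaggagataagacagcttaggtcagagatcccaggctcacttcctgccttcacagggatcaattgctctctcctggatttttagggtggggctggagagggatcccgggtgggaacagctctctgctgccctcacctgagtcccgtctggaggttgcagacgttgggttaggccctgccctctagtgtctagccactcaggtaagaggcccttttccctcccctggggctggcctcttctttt
Krt18, chr15:102027966-102028215, plus strand: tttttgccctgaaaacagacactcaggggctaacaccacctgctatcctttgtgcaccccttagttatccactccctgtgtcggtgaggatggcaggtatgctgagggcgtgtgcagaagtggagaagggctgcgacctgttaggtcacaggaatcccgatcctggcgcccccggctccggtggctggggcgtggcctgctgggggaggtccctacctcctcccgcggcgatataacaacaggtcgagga
Wfdc2, chr2:164562465-164562714, plus strand: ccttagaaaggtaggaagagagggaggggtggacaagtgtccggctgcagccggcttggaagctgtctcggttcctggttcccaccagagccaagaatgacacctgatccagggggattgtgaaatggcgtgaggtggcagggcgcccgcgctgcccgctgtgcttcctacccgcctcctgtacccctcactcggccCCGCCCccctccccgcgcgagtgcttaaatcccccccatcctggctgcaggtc
Hmga2, chr10:120476470-120476719, minus strand: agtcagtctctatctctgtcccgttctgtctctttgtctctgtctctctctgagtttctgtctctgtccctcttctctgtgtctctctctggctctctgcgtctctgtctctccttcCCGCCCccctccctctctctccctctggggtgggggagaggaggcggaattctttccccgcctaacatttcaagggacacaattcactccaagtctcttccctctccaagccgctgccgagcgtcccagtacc
A GC box was found in the Wfdc2 and Hmga2 stretches, and none of the 4 motifs in those of Krt8 and Krt18. Among 32817 stretches of the same length, 32.7% held a GC box, 33.8% a CCAAT box, 12.4% a TATA box and 6.75% an AP-1 site. CpG pairs numbered 3 before Krt8, 12 before Krt18, 14 before Wfdc2 and 8 before Hmga2, against a median of 6. The gene bodies of Krt8 (chr15:101996698-102004482) and Krt18 (chr15:102028180-102032027) are neighbors that point away from each other. The GENCODE vM21 genes start elsewhere than the RefSeq ones for 3 of the 4, so that the stretch of Wfdc2 lies wholly inside its GENCODE gene (chr2:164562413-164568510) and those of Krt8 and Krt18 partly inside theirs. Rhox5 is not shown, since its RefSeq stretch ends at position 37754607 of chromosome X and the GENCODE vM21 gene starts at 37804842.

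The rule left a group with deep libraries. Total UMIs per cell ranged from 4979 to 38768 with a median of 16102, and the median cell held 3392 genes and 3.09% mitochondrial UMIs. The 4 carcinoma genes summed to between 5 and 124 UMIs per cell, with a median of 18. All 4 genes were seen in 84 cells, 3 in 103 cells and 2 in 27 cells. Wfdc2 was at 534 UMIs per 1000000 UMIs of the class (CPM), Krt8 at 367, Rhox5 at 307 and Krt18 at 61 CPM. In single cells Wfdc2 went from 0 over a median of 6 to 119 UMIs, Krt8 from 0 over 4 to 59, Rhox5 from 0 over 4 to 24, and Krt18 from 0 over 0 to 13. The range was thus widest for Wfdc2, and Krt18 was the scarcest of the 4, seen in 45.3% of cells.

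Close to the limits, 6 cells held 5 carcinoma gene UMIs and 4 cells held 6, while 10 cells just outside held 4 and 6 cells held 3. Of the 10 cells just inside the limit 6 had Hmga2, and of the 16 cells just outside 12 had it (233 and 266 CPM). At the cell cycle limit, 152 cells held 0 UMIs of the 4 cycle genes, 33 held 1 and 29 held 2, and 19 cells just outside held 3. In all 247 cells met the carcinoma and cycle limits, of which 31 failed the limit on C1q genes, 3 that on Cd79a and Cd3e and 1 that on Dcn, with some cells failing more than 1 of them.

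**Figure D1:**
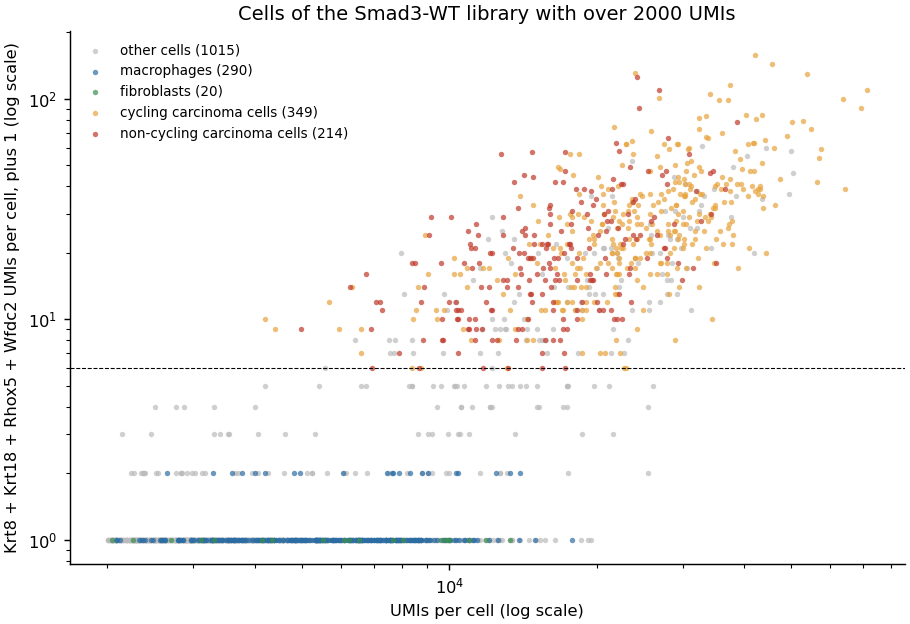
Each point is a cell of the Smad3-WT library with over 2000 UMIs, with total UMIs on the x axis and the summed UMIs of the 4 carcinoma genes plus 1 on the y axis, both on log scales. The dashed line marks 5 UMIs. The 214 non-cycling carcinoma cells (red) lie among the 349 cycling ones (orange) and above the 290 macrophages (blue) and 20 fibroblasts (green), and the gray cells above the line failed another limit.

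Hmga2, left out of the rule but chosen as a marker with earlier results of these data known, was compared with the label as a description. It was detected in 164 of 214 cells (76.6%, 70.4 to 82.1), at 245 CPM (229 to 262). Macrophages of the same library, chosen by 5 or more UMIs of C1qa, C1qb and C1qc, had 2.32 CPM. Fibroblasts, chosen by 10 or more UMIs of Col1a1, Col1a2, Col3a1 and Dcn, had 7.27 CPM. Thinned to 2000 UMIs per cell, Hmga2 was seen in 28.5% of carcinoma cells and in 0.345% of macrophages. As a view of background, among 1557 neutrophils, which were shallow (median 792 UMIs), 0.578% had an Hmga2 UMI, 0.578% a Krt8 UMI and 0.514% a Wfdc2 UMI. The macrophages and fibroblasts compared were limited to under 2 carcinoma gene UMIs. Without that limit, 60 of 329 macrophages (18.2%, 14.2 to 22.8) had a UMI of any carcinoma gene.

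In the Smad3-KO library, 0 of 530 cells with over 2000 UMIs met the rule, which allows a share of up to 0.566% by the limit of 3 cells and 0.694% by the exact interval. In the Smad3-WT library 214 of 1888 such cells did (11.3%, 9.94 to 12.9). The 4 carcinoma genes gave 27 UMIs in all Smad3-KO barcodes, at most 3 in 1 barcode, against 18522 in the Smad3-WT barcodes, and Hmga2 gave 11 against 4223. Of the 20 Smad3-KO barcodes with such a UMI, 15 had the same barcode sequence as a cycling or non-cycling carcinoma cell of the Smad3-WT library. The libraries shared 73 barcode sequences in all, and 3 of the 214 cells carried one. Genotype, sort and library cannot be told apart here, so the difference is one between 2 libraries. Further comparisons stay within the Smad3-WT library, except where fibroblasts of the Smad3-KO library are named.

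The gate had selected for neutrophil antigens, and few of the carcinoma cells held their transcripts. Ly6g, the antigen of the sort, gave 1 UMI over all 214 cells. Itgam, which encodes CD11b, was seen in 30 cells and Ptprc, the leukocyte antigen CD45, in 22 cells. S100a8 and S100a9, the most abundant neutrophil transcripts, were at 0 UMIs in the median cell, while 86 cells held at least 1 and the highest held 228. In 65 cells the sum of S100a8, S100a9, Lyz2 and Tyrobp reached 5 UMIs. Without them, 149 cells remained, called leukocyte-low below, with 1 Itgam UMI, 1 Ptprc UMI and 0 of Ly6g in all. All 10 neutrophil markers had UMIs in the 214 cells, summing to 933 CPM with S100a9 highest. All 15 macrophage markers had UMIs too, at 657 CPM with Lyz2 highest. S100a8, S100a9, Lyz2 and Tyrobp chose the 149 cells, so their low levels there follow from the choice. Of genes that took no part in it, Il1b, a cytokine of neutrophils and macrophages, was at 154 CPM in all 214 cells and at 3.44 in the 149. Csf3r, the receptor of the neutrophil growth factor G-CSF, went from 24.1 to 0.382 CPM, and Il1rn, the interleukin-1 receptor antagonist, from 55.8 to 1.53 CPM. In neutrophils the neutrophil markers reached 89238 CPM, and in macrophages the macrophage markers reached 40095 CPM. Values for the leukocyte-low cells are given beside results below. No doublet caller was run, and whether the 65 droplets held more than 1 cell was not tested. The study kept neutrophils by S100a9, S100a8, Csf3r and Il1rn, with no threshold stated in its methods. A UMI of any of these genes, a criterion set here, was found in 96 of the 214 cells (44.9%) and in 75.5% of macrophages. Of the 96 carcinoma cells, 64 held under 20000 UMIs, the study's upper limit. Whether they passed the study's filter is not known.

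Against macrophages (290 cells, median 5497.5 UMIs), 5291 genes whose CPM averaged at least 20 over both classes were compared. A level at least 4-fold higher in carcinoma cells was found for 301 genes (5.69%) and at least 4-fold lower for 736 (13.9%). Against fibroblasts (20 cells, median 6383 UMIs), 5732 genes were compared, with 320 higher (5.58%) and 1002 lower (17.5%). The median log2 ratio over all genes was -0.15 against macrophages and -0.32 against fibroblasts. Among the 4604 genes compared with both, 79 were higher than in both and 280 lower than in both. Ribosomal protein genes took 37.1% of the UMIs of carcinoma cells, 13.8% in macrophages and 16% in fibroblasts. Leaving out mitochondrial and ribosomal genes raised every log2 ratio by 0.47 against macrophages and by 0.44 against fibroblasts. The share of higher genes among those called went from 29.0% to 51.1% against macrophages and from 24.2% to 41.5% against fibroblasts. It was 35.7% against fibroblasts when the median gene was set to no change. Ratios between 0.72 and 1 against macrophages, or 0.737 and 1 against fibroblasts, therefore turn around with the scaling, and none that passed 4-fold does.

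Ranked by the smaller of their ratios to macrophages and to fibroblasts, the genes above both were led by Hmga2 (106-fold, 41.2 to 389, and 33.7-fold, 6.04 to 1333). Next came Pvt1, a long noncoding RNA beside Myc, at 298 CPM against 9.84 and 7.27. Cda, the cytidine deaminase that salvages nucleosides, was at 169 CPM against 0.579 and 7.27. Gchfr, which restrains the first enzyme of tetrahydrobiopterin synthesis, was at 351 CPM against 3.47 and 0 UMIs. A level of 7.27 CPM in fibroblasts is 1 UMI, and for any gene 0 UMIs there allow up to 26.8 CPM. Genes at 0 UMIs in fibroblasts, such as Wfdc2 and Gchfr, were ranked by lower bounds (24.5 and 16.1). The order among the leading genes therefore depends on how 0 UMIs were treated. Myc itself, the growth regulator, was at 509 CPM, 12.5-fold above macrophages (9.88 to 16.2) and 11.7-fold above fibroblasts (5.34 to 31.8). Map1b, a microtubule protein of growing axons, was at 301 CPM against 3.47 and 36.4. Mgst3, a glutathione transferase of membranes, was at 304 CPM against 34.7 and 7.27. Cav1, Tpm1, Mtap and Cxcl1 were also among the 20 leading genes, besides Wfdc2, Krt8 and Rhox5 of the rule, 3300005D01Rik, Acap1, Ank, Fhl2, Slc30a4 and the pseudogene Rps12-ps3, whose reads may be those of its parent gene. Mtap, the enzyme that recycles methylthioadenosine, was at 126 CPM, while its neighbor Cdkn2a, the tumor suppressor that makes p16 and p19, gave 0 UMIs in these cells, in macrophages and in fibroblasts. With each cell thinned to 2000 UMIs the 20 fibroblasts gave 0 UMIs of Hmga2, Pvt1, Cda and Gchfr, so the ratios to them are then lower bounds of 2.99, 3.74, 1.74 and 5.11, and that of Cda to macrophages, also at 0, a lower bound of 25.3. Myc gave 0 UMIs in the thinned fibroblasts as well, a lower bound of 6.73. Against macrophages the thinned ratio was 65 for Hmga2, 54.2 for Pvt1 and 187 for Map1b, from 106, 30.2 and 86.7, and with the mitochondrial limit at 5% that of Hmga2 was 197. With cells at 0 UMIs of the cycle genes the ratio of Gchfr to macrophages was 183, from 101, and that of Myc to fibroblasts 25.1. Cda then gave 0 UMIs in macrophages, a lower bound of 91.6, and Pvt1 gave 0 in fibroblasts, a lower bound of 10.7.

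At the other end were genes with higher levels in both stromal classes. Cd302, a lectin receptor, was at 0.542 CPM against 130.3 in macrophages and 233 in fibroblasts. Ccl8, a chemokine for monocytes, was at 1.63 CPM against 2267 and 269. Tgfbr2, the type II receptor of TGF-β, was at 1.9 CPM against 69.5 and 887. Pdpn, the membrane glycoprotein podoplanin, was at 2.71 CPM, 0.382 in the leukocyte-low cells, against 123 and 298. The other 6 of the 10 lowest were Gas7, Abca1, Rnase4, Cxcl9, Ctsh and Pf4. The fibroblasts themselves held macrophage markers at 5963 CPM and neutrophil markers at 3628 CPM, against 657 and 933 in the carcinoma cells. How far leukocyte RNA in the fibroblasts adds to the genes counted as lower than in them was not tested.

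**Figure D2:**
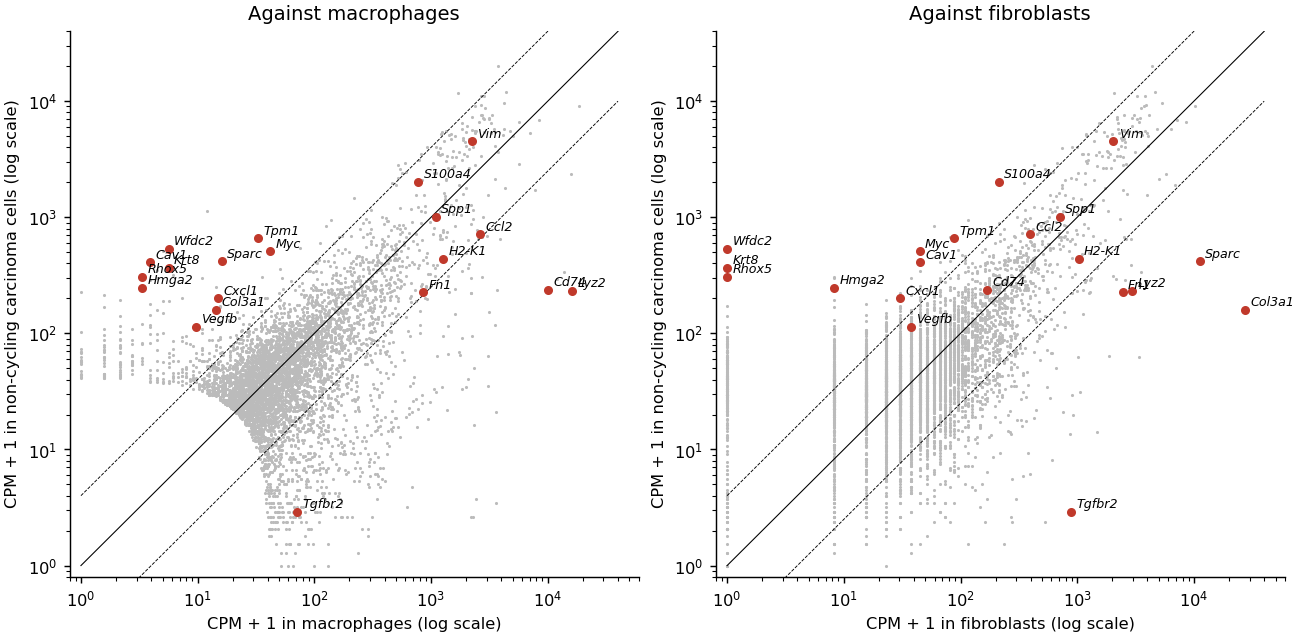
Each gray point is a gene with a mean of at least 20 CPM over carcinoma cells and macrophages, with its CPM plus 1 in non-cycling carcinoma cells on the y axis and in macrophages (left) or fibroblasts (right) on the x axis, on log scales. Red points are genes named in the text, the solid line marks equal levels and the dashed lines 4-fold. Hmga2 and Cav1 lie above the upper dashed line on both sides, Tgfbr2 lies below the lower one on both, and Sparc changes sides.

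Krt8 and Krt18, which helped choose the cells, were the main keratins seen in them. Of 11 keratins, Krt8 (348 to 387 CPM) and Krt18 (53.3 to 69.5) were followed by Krt80 with 9 UMIs and Krt7 with 7, and Krt5, Krt14, Krt17 and Krt19 gave 0. Of 16 genes of epithelial adhesion, 9 had UMIs and their sum was 67.5 CPM, of which Tjp1, a scaffold of tight junctions, made up 40.1. The sum was 5.55-fold above the 12.2 CPM of macrophages (3.55 to 9.12). Against the 43.6 CPM of fibroblasts the ratio was 1.55 (0.7 to 4.25). Epcam, Cldn3, Cldn4 and Esrp1 were at 0 UMIs, and Cdh1, the epithelial cadherin, gave 2 UMIs. Of 17 genes of lung epithelium, the surfactant genes Sftpa1, Sftpb, Sftpc and Sftpd, the secretoglobin Scgb1a1 and the lineage factor Nkx2-1 gave 0 UMIs. Of the list 6 genes had UMIs, summing to 19.8 CPM, 13 in the leukocyte-low cells, with Hopx, a homeodomain protein of alveolar and other cells, highest at 13.3. Apart from Hopx, the listed markers of lung epithelium were thus at or near 0 over the 3691161 UMIs of the class.

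Mesenchymal genes were abundant. Of 22 such genes, 19 had UMIs and summed to 8779.6 CPM. Of 14 compared with macrophages 6 were at least 4-fold higher and 2 lower, and of 17 compared with fibroblasts 2 were higher and 7 lower (median log2 ratios 1.20 and -1.62). The shares over all genes, which stand beside the counts of this and the later lists, were 5.69% higher and 13.9% lower than in macrophages, and 5.58% and 17.5% than in fibroblasts. Vim, the intermediate filament of mesenchymal cells, was present in 99.5% of cells. It went from 0 over a median of 65 to 330 UMIs per cell, at 4506 CPM against 2235 in macrophages and 2029 in fibroblasts. S100a4, a calcium-binding protein of motile cells, was at 2022 CPM against 774 and 211. Tpm1 and Cald1, which bind actin, were at 659 and 319 CPM, 20.7-fold and 61.2-fold above macrophages. The transcription factors Twist1 (39 CPM), Twist2 (67.2) and Prrx1 (53.4) set the cells apart from macrophages, where the first pair gave 0 UMIs and Prrx1 1.16 CPM. In fibroblasts Twist1 was at 167, Twist2 at 72.7 and Prrx1 at 284 CPM. Cdh2, the cadherin often gained with these factors, was at 0 UMIs, and so were the muscle proteins Tagln and Cnn1.

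The matrix genes separated the cells from fibroblasts. The 17 matrix genes, of which Col1a1, Col1a2 and Col3a1 helped choose the fibroblasts, summed to 1633 CPM, against 72446 in fibroblasts, and 11 of 16 compared were at least 4-fold lower. Against macrophages 6 of 8 were higher and 0 lower. Col1a1 gave 3 UMIs in 214 cells. Col3a1, the fibrillar collagen of loose tissue, gave 586 UMIs, was seen in 68.7% of cells and was at 152 CPM in the leukocyte-low cells. The quotient of Col1a1 to Col3a1 UMIs was 0.00512 here and 0.75 in fibroblasts, whose selection used both genes. Postn, a matrix protein of activated fibroblasts, was at 0 UMIs. Of the fibroblast markers, among them the 3 collagens that chose the fibroblasts and Dcn, whose level chose both classes, 8 of 10 had UMIs, summing to 191 CPM with Col3a1 highest, against 72417 CPM in fibroblasts. Of 2 basement membrane genes, Col4a1 was at 97.5 CPM against 87.3 in fibroblasts and Lamb1 at 86.2 against 65.4. Both ratio intervals include 1 (0.632 to 2.18 and 0.685 to 2.91). Lama5, a laminin chain of epithelia, was at 58 CPM with 0 UMIs in fibroblasts and macrophages. Sparc, a matrix-binding glycoprotein, was at 415 CPM, 27.6-fold above macrophages (18.8 to 42.4) and 27-fold below fibroblasts. The ratio to macrophages was 15.5 with cells thinned to 2000 UMIs and 44.3 with at least 5000 UMIs per cell. Spp1, or osteopontin, was at 1011 CPM in a range of 0 to 225 UMIs per cell, against 1093 in macrophages, a ratio that the scaling turns.

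Of 16 proteases and inhibitors, 11 were compared with macrophages, with 0 at least 4-fold higher and 5 lower. Of 13 compared with fibroblasts 0 were higher and 8 lower. Among all genes 5.69% were higher and 13.9% lower than in macrophages, and 17.5% lower than in fibroblasts. Mmp2, a gelatinase, was at 0 UMIs against 2014 CPM in fibroblasts, and Mmp3, stromelysin, at 0.813 against 1011 CPM. Mmp9, a gelatinase of neutrophils, was at 17.1 CPM, and at 1.91 in the leukocyte-low cells. Mmp14, a membrane-bound activator of Mmp2, was at 95.1 CPM in 65.4% of cells. The lysosomal cathepsin Ctsb was at 302 CPM against 2737 in macrophages.

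Caveolar genes were all detected. All 6 were at least 4-fold above macrophages, while 2 were above fibroblasts and 2 below. Cav1, the coat protein of caveolae, was in 97.7% of cells at 409 CPM (389 to 431). It was 141-fold above macrophages (60.5 to 436) and 9.38-fold above fibroblasts (4.3 to 25.6). With cells thinned to 2000 UMIs the ratio to macrophages was 262. The ratio to fibroblasts was 47.4 with at least 5000 UMIs per cell, 4.02 as a mean over cells and 3.53 against fibroblasts of the Smad3-KO library. Cav2 was at 144 CPM against 23.7 and 29.1. The adaptors Cavin1 and Cavin3 were at 71.5 and 73.7 CPM, below the 298 and 356 CPM of fibroblasts.

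Oncofetal genes divided. Of 16 listed, 10 had UMIs and summed to 1049.5 CPM against 173 in macrophages and 319.9 in fibroblasts. All 4 compared with macrophages were at least 4-fold higher, and of 7 compared with fibroblasts 2 were higher and 3 lower. Hmga1, a chromatin protein like Hmga2, was at 670.0 CPM against 162 and 80. Igf2bp2, which binds messenger RNA, was at 45 CPM. The imprinted genes Peg3 and Mest were at 42.5 and 37.7 CPM, while Igf2, H19 and Dlk1, imprinted too, gave 0 UMIs, as did the RNA-binding pluripotency gene Lin28a. Of 14 germline genes, 4 had UMIs, with 1 UMI each for Xlr3b and Dppa3, which left Rhox5 and Gm364. Gm364 was at 88.6 CPM in 62.1% of cells against 1.16 CPM in macrophages and 0 UMIs in fibroblasts. The neighbors Rhox6 and Rhox9 of Rhox5 gave 0 UMIs.

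Genes of growth signaling included several targets of RAS and ERK. Of 9 genes of RAS and growth factor receptors, 2 of 6 compared were at least 4-fold above macrophages and 0 below, and of 7 compared with fibroblasts 0 were above and 1 below. Met, the receptor of hepatocyte growth factor, was at 52.6 CPM against 1.74 and 0 UMIs. Fgfr1, a fibroblast growth factor receptor, was at 119 CPM against 2.32 and 225, and Egfr, the epidermal growth factor receptor, was at 0 UMIs against 153 CPM in fibroblasts. Of 16 genes of ERK feedback and targets, 12 were compared with macrophages, with 3 at least 4-fold higher and 2 lower (median log2 ratio 0.04), and 11 with fibroblasts, with 2 higher and 1 lower. Etv4, an ERK-driven transcription factor, was at 67.5 CPM against 0.579 and 0 UMIs. Fosl1, a subunit of AP-1, was at 112 CPM against 8.11 and 21.8, and Myc is given above. The phosphatase Dusp6 was at 74.2 CPM against 84.5 and 36.4, with ratio intervals that include 1 (0.716 to 1.08 and 0.864 to 6.34). Among 17 angiogenic and growth factors, 4 of 5 compared were above macrophages and 1 below, and of 7 compared with fibroblasts 0 were above and 3 below. Vegfb, which acts on vessel and heart muscle, was at 113 CPM, 13-fold above macrophages (7.78 to 23.4). Vegfa, the main angiogenic factor, was at 14.4 CPM, 9.17 in leukocyte-low cells, against 77.6 and 145. The EGF family ligands Areg and Hbegf were at 41.5 and 53.6 CPM, against 1.16 and 12.2 in macrophages and 0 UMIs in fibroblasts.

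Of 23 chemokines and cytokines, 18 had UMIs. Against macrophages 2 of 10 compared were at least 4-fold higher and 5 lower, and against fibroblasts 1 of 9 was higher and 2 lower. Mif, macrophage migration inhibitory factor, was in every cell at 1617 CPM against 1293 in macrophages. Ccl2, which recruits monocytes, was seen in 78.5% of cells, from 0 over a median of 5 to 130 UMIs. It was at 709.8 CPM, 650.1 in the leukocyte-low cells, against 2636 in macrophages and 393 in fibroblasts. Cxcl1, a neutrophil chemokine, was seen in 36.9% of cells, from 0 to 105 UMIs. It was at 199 CPM (222 in leukocyte-low cells), 14.3-fold above macrophages (9.54 to 22.5, and 22-fold with thinned cells) and 6.84-fold above fibroblasts (2.66 to 25.2). Against fibroblasts of the Smad3-KO library its ratio was 1.1 and that of Ccl2 0.617, from 1.81 within the library. With thinned cells that of Cxcl1 was a lower bound of 2.52, with 0 UMIs in fibroblasts, and that of Ccl2 was 4.07. In neutrophils of the library Cxcl1 was at 12.7 CPM. Cxcl2, its close relative, behaved otherwise. It was at 681 CPM in all cells, 227 in the leukocyte-low and 1787 in the other 65, against 30172 CPM in neutrophils. Cxcl5, a further neutrophil chemokine, was seen in 12 cells (5.61%) with up to 68 UMIs. Il34, a ligand of the macrophage receptor Csf1r, was at 43.3 CPM and gave 0 UMIs in macrophages, a level at least 25-fold higher. Csf1, the other ligand, was at 72.3 CPM against 45.7 in macrophages. Csf2 gave 2 UMIs, Csf3 gave 1 and Il6 gave 1, so these were not detectable above single molecules.

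Because the mice differed in Smad3, the TGF-β genes of the carcinoma cells were read one by one. Tgfb1, the ligand, was at 87.5 CPM (78.2 to 97.6) in 69.6% of cells, against 310.3 in macrophages and 87.3 in fibroblasts. Both receptors that carry its signal were close to 0. Tgfbr2 was seen in 2.8% of cells at 1.9 CPM (0.762 to 3.91), 36.6-fold below macrophages and 468-fold below fibroblasts, and was at 0.382 CPM in the leukocyte-low cells. In the leukocyte-low cells the ratio was 0.0055 to macrophages and 0.000431 to fibroblasts, from 0.0273 and 0.00214 in all cells. With cells thinned to 2000 UMIs the carcinoma cells gave 0 UMIs, and upper bounds of 0.0884 and 0.0085. Tgfbr1, the type I receptor, was at 2.98 CPM (1.49 to 5.33) against 29.5 and 72.7. Both were as low in cycling carcinoma cells, at 1.94 and 4.32 CPM. Tgfbr3, the co-receptor betaglycan, was at 86.2 CPM in 69.6% of cells, above the 1.16 of macrophages and below the 269 of fibroblasts. Ltbp1, which tethers the latent ligand, was at 47.1 CPM. Smad3 was at 18.4 CPM (14.3 to 23.4) against 8.11 in macrophages, and Smad2 and Smad4 were at 27.9 and 17.9 CPM. The 12 genes of Smad proteins and inhibitors summed to 187 CPM, against 223 in macrophages and 487 in fibroblasts. Of 4 compared with macrophages 0 passed 4-fold, and of 8 compared with fibroblasts 0 were higher and 3 lower. The median log2 ratios were -0.87 and -1.44. Among 12 target genes, of which 10 were in the files, 1 of 5 compared was at least 4-fold above macrophages and 2 were below. None of 8 was above fibroblasts and 5 were below. Id3, a target shared with BMP signals, was at 40.9 CPM against 6.95 in macrophages. Ctgf, another target, gave 1 UMI. Thbs1, an activator of the ligand, was at 145 CPM but at 8.79 in the leukocyte-low cells.

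Genes of antigen presentation, which T and NK cells read, were compared next. Of 15 genes of MHC class I presentation all had UMIs, 0 were 4-fold above macrophages and 2 were 4-fold below, beside 13.9% of all genes, with a median log2 ratio of -1.23 against -0.15 over all genes. H2-K1 was at 439 CPM against 1268 in macrophages and 1025 in fibroblasts, and B2m, its light chain, at 966 against 2273 and 2319.6. H2-D1 was at 1263 CPM against 2209 and 1294. Tap1, a subunit of the transporter that carries peptides into the ER, was at 15.4 CPM, 9.93 in leukocyte-low cells, against 105 and 87.3. MHC class II genes were lower in the leukocyte-low cells. Cd74, the invariant chain, was at 235 CPM and in 19.6% of cells, and at 4.2 CPM in leukocyte-low cells. H2-Aa, a class II chain, was at 62.6 CPM in all and at 0.764 CPM in leukocyte-low cells, and Ciita, the switch of these genes, gave 0.271 CPM. In macrophages Cd74 was at 9994 CPM.

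Of 9 interferon signaling genes 5 were at least 4-fold below macrophages and 0 above, with Ifngr1, a chain of the interferon gamma receptor, at 21.1 CPM against 234. Of 8 compared with fibroblasts 3 were lower. Of the 16 interferon-stimulated genes, 15 were in the files and 6 of 10 compared were lower than in macrophages and 3 of 8 lower than in fibroblasts, with 0 higher. Isg15, a ubiquitin-like modifier, was at 90.2 CPM, 48.1 in leukocyte-low cells, against 292. Bst2, or tetherin, differed from the rest at 567 CPM in 95.3% of cells, against 397 in macrophages and 422 in fibroblasts. Of 17 surface ligands, 6 were compared with macrophages, with 0 at least 4-fold above and 4 below. Of 7 compared with fibroblasts 0 were above and 2 below. Cd47, the signal that restrains phagocytes, was at 182 CPM in 87.9% of cells, against 294 in macrophages and 334 in fibroblasts. Cd274, which encodes PD-L1, was at 13.5 CPM, 8.02 in leukocyte-low cells, against 113 in macrophages. The NKG2D ligands Raet1e and Ulbp1 were at 13.8 and 12.2 CPM against 2.89 and 2.32 in macrophages.

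**Figure D3:**
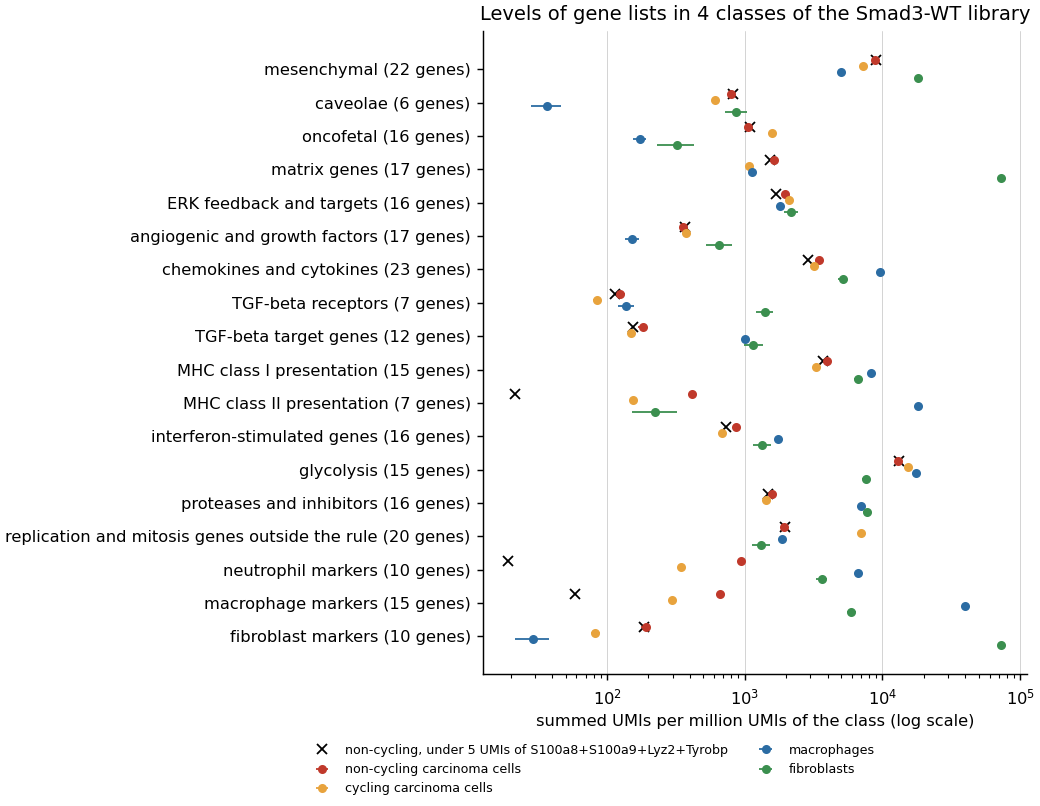
Each row is a gene list and each dot the summed CPM of its genes in a class of the Smad3-WT library, on a log axis, with exact 95% Poisson intervals. Crosses are the 149 carcinoma cells with under 5 UMIs of S100a8, S100a9, Lyz2 and Tyrobp. Caveolar genes sum to 792 CPM in carcinoma cells and 36.5 in macrophages, while MHC class II, neutrophil and macrophage markers are lower at the cross than at the red dot. Some of the neutrophil and macrophage markers chose the crosses.

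Genes of metabolism and stress were compared next. The 15 genes of glycolysis, in 16 rows since Aldoa has 2 of them, summed to 13057 CPM against 17543 in macrophages and 7555 in fibroblasts, and none passed 4-fold on either side. Their median log2 ratio was -0.42 against macrophages, which turns positive without the ribosomal genes, and 0.62 against fibroblasts. Ldha, lactate dehydrogenase, was at 1139.7 CPM against 1368 and 756. Of 12 genes of hypoxia response, 11 were compared with macrophages, with 2 at least 4-fold lower and 1 higher, the vasodilator peptide gene Adm at 72.3 against 5.21 CPM. Of 10 compared with fibroblasts 0 were higher and 2 lower. These counts were near the shares of all genes, with 5.69% higher and 13.9% lower than in macrophages and 17.5% lower than in fibroblasts. Of 14 genes of sterol and fatty acid synthesis, 10 were compared with each class and 0 were lower. Among them 1 was above macrophages, the desaturase Scd1 at 52.3 against 1.16 CPM, and 1 above fibroblasts, the farnesyl diphosphate synthase Fdps at 87.2 against 7.27. Of 16 NRF2 genes, 12 were compared with each class. Against fibroblasts 2 were lower and 0 higher, and against macrophages 2 were lower and 1 higher. The higher one was the glutathione transferase Gsta4, at 68 CPM with 0 UMIs in both other classes. Its ratio to fibroblasts was a lower bound of 3.12. Hmox1, the heme oxygenase, was at 68.3 CPM, 25.2 in leukocyte-low cells, against 1749. Among 9 genes of ER and amino acid stress, 1 of 6 compared was above macrophages and 0 were below, and 0 of 6 passed 4-fold against fibroblasts. Asns, asparagine synthetase, was at 57.4 CPM against 9.26 and 0 UMIs. Of 16 genes of the p53 and Rb pathway, 7 were compared with each class and 0 were higher, while 2 were lower than in macrophages and 1 lower than in fibroblasts. Cdkn1a, the p21 inhibitor, was at 55.8 CPM, 27.1 in leukocyte-low cells, against 309 and 269, and Cdk4, its target kinase, at 344 against 102 and 116. The 11 genes of dissociation and early response summed to 1571 CPM, against 2970.2 in macrophages and 3876 in fibroblasts. All 11 were compared with macrophages, with 0 higher and 3 lower, and 9 with fibroblasts, with 0 higher and 2 lower. Jun was at 584 CPM against 307 and 698, and the heat shock gene Hspa1a at 5.15, and 0 in leukocyte-low cells, against 344 and 29.1.

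Markers of further cell types were close to the floor. Endothelial markers summed to 7.86 CPM, those of T and NK cells to 1.9, those of B cells to 3.79 (1.53 in leukocyte-low cells) and those of red blood cells to 1.9. Xist gave 0 UMIs in these cells, in macrophages and in fibroblasts. The Y-linked genes Ddx3y and Eif2s3y were at 27.4 and 45.5 CPM, against 52.1 and 49.2 in macrophages.

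The most abundant transcripts outside genes named mt-, Rpl or Rps included those of translation elongation factors, small cytosolic proteins, a glycolytic enzyme, filament proteins and a chaperone. Eef1a1, a translation elongation factor, led at 12007 CPM against 4354 in macrophages and 4654 in fibroblasts. It was followed by S100a6, a calcium-binding protein, at 9682 CPM and by Fth1, ferritin heavy chain, at 9096. Lgals1, Tmsb10, Ppia, Gm10076, Fau, Tpt1, Gapdh, Vim, Hsp90ab1, Eef2 and Actg1 were also among the leading 15, from 7082 down to 2861 CPM. Hsp90ab1, a chaperone, was at 3935 CPM against 1185 and 742, and Eef2, another elongation factor, at 3480.5 against 816 and 1105. Both were in every cell.

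Variation among the cells was read after each had been thinned to 2000 UMIs. For 2078 genes with at least 200 UMIs before thinning the variance over the mean had a median of 1.07, close to counting noise, and 98 genes (4.72%) reached 2. Mt1, a metallothionein that binds zinc, led at 16.9 and stayed at 15.9 among leukocyte-low cells. Its per-cell level went from 0 over a median of 938 to 30824 CPM. Mt2 lay with it at a rank correlation of 0.30 over 214 cells. Fth1 (7.63) and S100a6 (6.51) varied too, and Gm42418 (11.4) overlaps a ribosomal RNA repeat, so its reads are uncertain. Ccl2 stood at 4.99, and at 3.77 in leukocyte-low cells.

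Other genes varied less among the leukocyte-low cells. Cd74 went from 10.9 to 1 and Cxcl3 from 7.01 to 1. Myc went from 7.5 to 1.86. Its highest counts, 106 and 102 UMIs, were in 2 of the other 65 cells, where it reached 12929 CPM against a median of 274 over all cells. In the leukocyte-low cells 70 genes reached 2, and Ly6c1, Igfbp4 and Cxcl1 came among the leading 15. Ly6c1, an antigen of monocytes and endothelium, was at 1126 CPM in 92.1% of cells, 102-fold above macrophages (65.4 to 170.1), against 1832 in fibroblasts. Its near-identical neighbor Ly6c2 was at 11.4 CPM, 3.06 in leukocyte-low cells, and reads could be split between the copies. Igfbp4, which binds insulin-like growth factors, was at 1456 CPM against 218 and 916. Krt8 and Krt18 correlated at 0.32, and Rhox5 and Wfdc2 at 0.04, over the 214 thinned cells. These correlations come from sparse counts of 1 library and are descriptive. Krt8, Krt18, Rhox5 and Wfdc2 also chose the cells by their sum, so correlations between them depend on that choice.

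**Figure D4:**
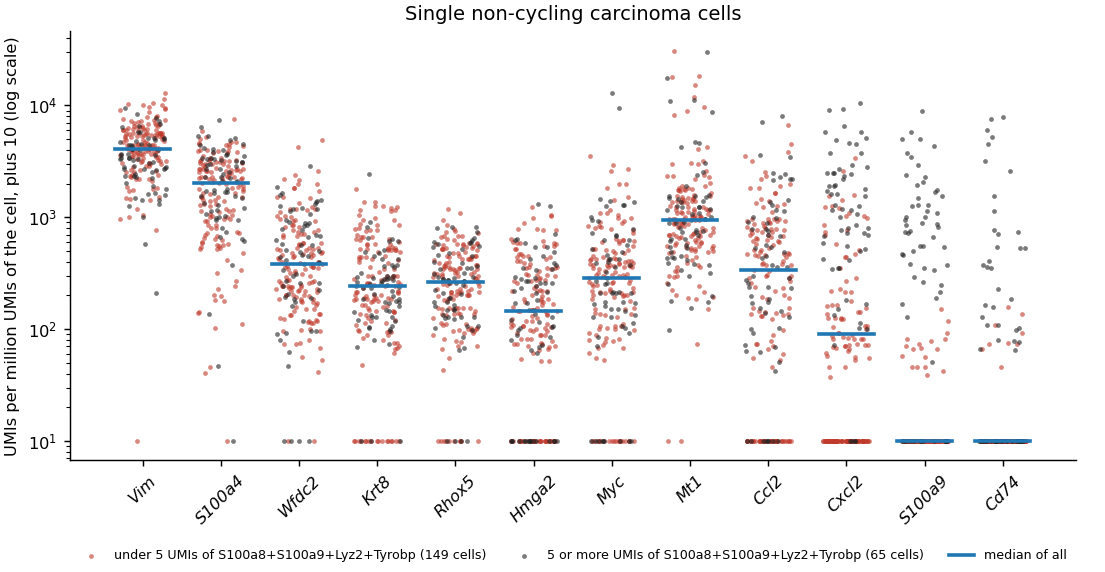
Each point is 1 of 214 carcinoma cells, with CPM of that cell plus 10 on a log axis for 12 genes. Blue bars mark the median, and dark points are the 65 cells with 5 or more UMIs of S100a8, S100a9, Lyz2 and Tyrobp. Vim is high in nearly every cell and S100a4 in most, Mt1 has a tail up to 30824 CPM, and S100a9 and Cd74 are at 0 or low except mainly in dark points.

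The 349 cycling carcinoma cells of the same library met every limit but the one on cycle genes, and were deeper (median 24933 UMIs). Of 4887 genes compared, 89 were at least 2-fold higher in the non-cycling cells (1.82%) and 184 at least 2-fold lower (3.77%). Both directions come from the contrast that the rule used and are described only. Ube2c and Birc5 chose the cells, and Ccna2, Kifc1, Aurkb, Ska1, Kif23, Bub1, Tpx2 and Ccnb1 were the others of the 10 lowest. The 20 replication and mitosis genes outside the rule summed to 1942 CPM against 6986. Ogn, the matrix proteoglycan mimecan, led the higher genes at 212 CPM against 34 (6.22-fold, 5.45 to 7.11). Lgals7, a galectin of stratified epithelium, was at 75.3 against 15.7, and Sema3a, a guidance ligand, at 75.6 against 19. Ogn was 7.68-fold higher (5.69 to 10.6) among 129 non-cycling and 81 cycling cells with 10000 to 20000 UMIs, Lgals7 4.99-fold (3.28 to 7.92) and Sema3a 2.92-fold (2.08 to 4.2). Hist1h2bc, Sphk1 and Sbsn were higher as well, while H2-Eb1, H2-Ab1, Lilr4b and G0s2 were at under 1 CPM in the leukocyte-low cells. Cav1 was 1.73-fold higher, S100a4 1.96-fold and Fn1, fibronectin, 2.7-fold. Krt8, which chose both groups, and Hmga2 were at ratios of 0.929 (0.872 to 0.989) and 0.969 (0.897 to 1.05), and Fosl1 was at 0.508 and Hmga1 at 0.56 of the cycling level.

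Position in the genome was looked at after the ratios had been seen. Of 31053 genes 30934 had a place in GENCODE vM21, on the build of the files. Log2 ratios were set to a median of 0 over all genes compared. Against macrophages, the median was lowest for chromosomes 16 (-0.58, 146 genes), 14 (-0.56, 166 genes), 7 (-0.44, 368 genes) and 9 (-0.33, 265 genes). Against fibroblasts these were at -0.62, -0.62, -0.34 and -0.42. Chromosomes 12 (0.34), 8 (0.26), 15 (0.26) and 13 (0.24) were on the high side against macrophages. Against fibroblasts they were at 0.39, 0.31, 0.12 and 0.16. Both comparisons share the carcinoma cells. Between macrophages and fibroblasts, with no carcinoma cell in it, chromosome medians stayed between -0.14 and 0.11. In leukocyte-low cells against macrophages they went from -0.64 to 0.37. Genes within a chromosome overlapped widely, with quartiles of -1.56 and 0.15 on chromosome 16, and its genes below 0 made up 71.2%.

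**Figure D5:**
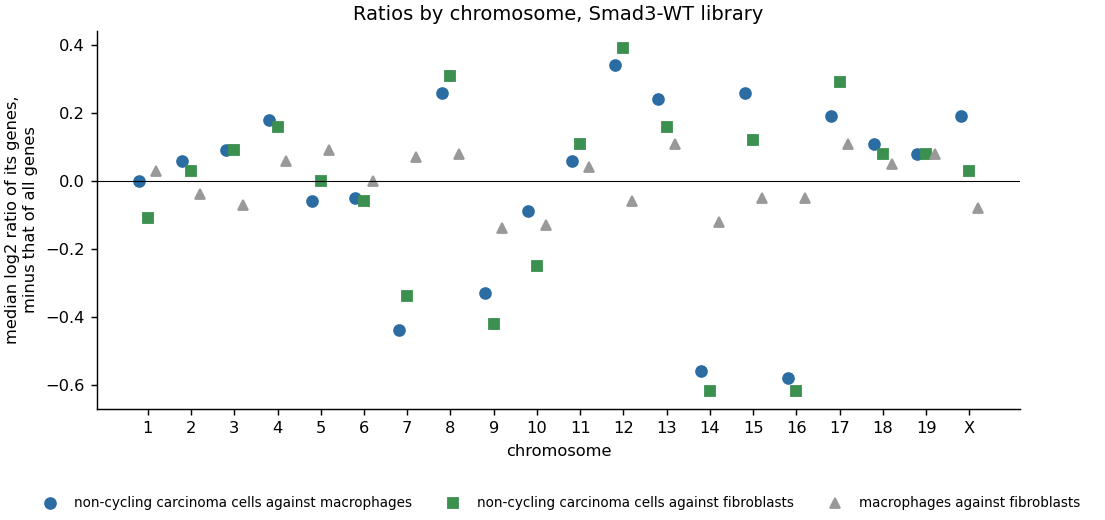
Points are the median log2 ratio of the genes of each chromosome minus that of all genes, for non-cycling carcinoma cells against macrophages (circles) and fibroblasts (squares) and for macrophages against fibroblasts (triangles). Chromosomes 7, 9, 14 and 16 lie below -0.3 for the carcinoma cells, and the triangles stay between -0.14 and 0.11.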

How the data were processed

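Raw counts of UMIs per gene and barcode were deposited by the authors, who made them with Cell Ranger on build mm10 per the labels. A second deposited table by the authors holds a signal per gene and genotype, the mean UMIs scaled to 1311, the median per barcode. It was used only to match barcode suffixes to genotypes (largest difference 3.58e-08 over 19114 genes). Its fold changes and p-values, and a table of clusters, were not used.

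Classes were set by UMI limits. Macrophages had 5 or more C1q UMIs over at least 2 genes, and fibroblasts 10 or more of Col1a1, Col1a2, Col3a1 and Dcn with 2 or more of Dcn. Both had under 2 carcinoma gene UMIs, under 3 of cycle genes and no Cd79a or Cd3e. Macrophages had under 2 of Dcn and fibroblasts under 3 of C1q. Neutrophils (10 or more UMIs of S100a8 and S100a9, none of C1q, cycle genes, Dcn, Cd79a or Cd3e, 500 to 5000 UMIs) served for background. No doublet caller was run, and cells with transcripts of leukocytes were handled by these limits and by the values without the 65 cells.

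CPM are UMIs summed over a class, per 1000000. Intervals are exact (Poisson for a level, binomial split of UMIs for a ratio, Clopper-Pearson for a share). A class at 0 UMIs was set to 3 for a bound. A gene was called at 4-fold (2-fold against cycling cells) with a mean of at least 20 CPM. On data simulated for the comparison with macrophages (4920 genes, 200 changed 8-fold), 100.0% of changed genes were called and 95.3% of intervals held the true ratio, with 0 other genes called. On data simulated for fibroblasts (4655 genes) these were 100.0% and 96.2%, and 49 unchanged genes were called. The simulated counts were Poisson draws from pooled totals, without variation among cells. They check the calculation, and cannot show how the intervals do for genes that vary among cells. Named genes are those of the lists and, among genes with 200 or more UMIs over the classes compared, the 20 highest and 10 lowest against both classes, the 15 most abundant, the 15 most variable, and the 10 highest and 10 lowest against cycling cells. Mt2, Ly6c1, Ly6c2, Igfbp4 and chromosomes were looked at after values were seen. The members and the lists were chosen with earlier results of these data known. Python 3.11.15, numpy 2.4.6 and scipy 1.17.1 were used. Some genes that these rules name are not reported here.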

Additional observations from a re-analysis of the deposited data

How the results depend on the processing

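No paired analysis was possible because each genotype has 1 library and all carcinoma cells came from 1 of them. The count of 214 carcinoma cells stayed within 1.5 times under 7 other limits, 149 without the cells that held 5 or more UMIs of S100a8, S100a9, Lyz2 and Tyrobp being the lowest, and the Smad3-KO count stayed at 0. Genes higher than in macrophages numbered 301, and 661 without mitochondrial and ribosomal genes in the totals, 869 with a mean of at least 5 CPM and 863 at 2-fold. Lower genes numbered 736, and 1248 and 1426 in the latter pair. Genes higher than in fibroblasts numbered 320, and 621 without those genes in the totals, 127 with cells thinned to 2000 UMIs and 957 at 2-fold. Lower genes numbered 1002, and 1564 with a mean of 5 CPM and 1941 at 2-fold. Fibroblasts of the Smad3-KO library, an alternative chosen after the data were seen, gave 330 and 956. Against cycling cells, counting cycle genes after thinning to 2000 UMIs left 484 cells on the non-cycling side and 79 on the cycling side, with 24 genes higher and 87 lower, and setting cells at 0 against cells with 10 or more gave 158 higher. Without those cells, an alternative also chosen after the data were seen, the Cd74 ratio to cycling cells turned from 2.86 to 0.737. The count of genes with a variance over mean of 2 rose from 98 to 213 at 5000 UMIs. The comparison with fibroblasts rests on 20 cells with 137523 UMIs.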
